A study of Danio rerio with 7 samples.

Results

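The NF-κB family was followed in embryonic zebrafish hearts through 10 symbols: the Rel proteins *rel*, *rela*, *relb*, *nfkb1* and *nfkb2*, the cytoplasmic inhibitors *nfkbiaa*, *nfkbiab* and *nfkbie*, and the nuclear IκB genes *bcl3* and *nfkbiz*. Genes were taken by their Ensembl symbol with case ignored. Of the 10 symbols, 7 were paired with 1 of the 33737 gene IDs each, and *rela*, *nfkb1* and *nfkbiz* were not analysed here because no ID in the tables carried them. The genes were selected on the counts of these same libraries, with the difference between *cora* and control hearts already known, so the members' own differences are described with a fold change and its standard error but without a p-value.

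RNA was sequenced from pools of hearts at 96 hpf, in 4 libraries from mutants, homozygous for *cora* stl325 (stl325/stl325), and 3 libraries from their unaffected clutchmates, all in the line *Tg(cmlc2::gfp)*. The allele, named for *corazoncito*, is a nonsense mutation in *taf5*, which encodes a scaffold subunit of the general transcription factor TFIID, recovered from a chemical mutagenesis screen. No embryo was treated, and the transgene that marks heart muscle with green fluorescent protein was carried by both groups. The controls are labelled wild type but are described as unaffected clutchmates, so they can include heterozygous carriers. The labels number the control libraries 1 and 3 and leave the other unnumbered. They do not say whether the pools came from separate clutches, so every p-value measures the spread between these pools, which may in part be technical.

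Rel proteins are transcription factors that bind DNA as pairs. The cytoplasmic inhibitors hold them outside the nucleus through ankyrin repeats until the IκB kinases mark the inhibitor for destruction by the proteasome, and the freed dimers then switch on inflammatory and survival genes, among them several of their own inhibitors. Bcl3 and the *nfkbiz* product have the same repeats but act in the nucleus, where in mammals Bcl3 binds dimers of the *nfkb1* and *nfkb2* products and can either activate or repress. In the adult zebrafish heart NF-κB activity is known from regeneration after injury.

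The libraries held 21474488 to 32037220 counted reads. Normalized CPM below are reads scaled to a common library size with TMM factors. *taf5* had a mean of 6.39 ± 2.104 normalized CPM (SD, n = 3) among controls against 3.33 ± 1.09 (SD, n = 4) in *cora* hearts, a log2 fold change of -0.94 ± 0.38 (SE) that did not pass (adjusted p = 0.232). The pools held tissue other than heart muscle. Epidermal markers summed to 10643 to 36530 normalized CPM in control and 19813 to 30299 in *cora* libraries, against 310 to 3436 and 354 to 2026 for the cardiomyocyte markers, of which *myl7* was present in every library, at 31.1 to 1068 and 50.9 to 525 normalized CPM, and *vmhc* was not analysed here. *tnnt2a*, *tnni1b*, *ttn.2* and *ryr2b* were not analysed either. Of 8 cardiomyocyte markers tested, 0 passed and 0 had a log2 fold change above 0, with a median of -0.76. All 10 tested markers of the exocrine pancreas fell in *cora* hearts, from sums of 6650 to 25188 to sums of 733 to 1767 normalized CPM. Of 4 lens markers tested, all had a log2 fold change above 0 and 2 rose, with sums of 227 to 523 normalized CPM in control and 960 to 11715 in *cora* libraries. Among all genes tested, 1.11% rose and 0.86% fell at an adjusted p under 0.05, and 47.8% had a log2 fold change above 0. The titles of the samples name embryos, and their tissue label is heart. Fewer cells of a type and less RNA per cell cannot be told apart in such pools. Control replicate 1 stood apart, with 33.7% of its counts on the mitochondrial chromosome against 16.8% to 21.8% elsewhere, and with the highest epidermal and the lowest cardiomyocyte sum of the 7 libraries. Fold changes are given with and without it for the family members that it shifted most and for some pathway genes. *taf5* was also highest in it, at 8.82 against 5.09 and 5.26 normalized CPM in the other controls, and its fold change is given only with it.

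*bcl3* (ENSDARG00000087832) lies on chromosome 16 of the Zv9 build from 27941266 to 27980506 on the minus strand, with 9 exons that overlap no other gene's. Its transcripts were at 1.51, 2.52 and 1.37 normalized CPM in control 1, in control 3 and in the unnumbered control. In *cora* replicates 1 to 4 the levels were 20.3, 21.7, 29.5 and 17.8 normalized CPM. The groups did not overlap, and the lowest *cora* library was 7.08 times the highest control library. The means were 1.80 ± 0.63 (SD, n = 3) and 22.3 ± 5.06 normalized CPM (SD, n = 4), a 12.4-fold ratio, and the fitted log2 fold change was 3.63 ± 0.34 (SE). It ranked 116 from the top among the log2 fold changes of the 21632 genes tested, which is part of what it was chosen for. The control values rest on 35, 83 and 42 reads, so counting error is not negligible there, whereas the *cora* values rest on 434 to 640 reads. With any single library left out, the log2 fold change lay between 3.46 and 3.96, and it was 3.53 without control replicate 1.

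**Figure D1:**
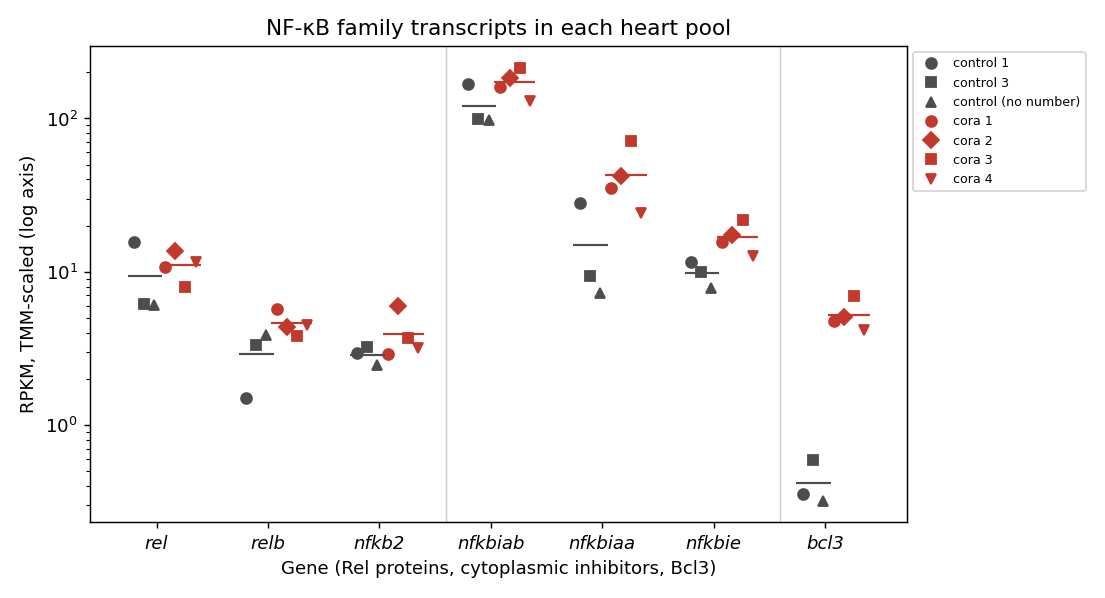
RPKM (normalized CPM divided by exon length in kilobases, log axis) of the 7 family members in the 3 control libraries (grey) and 4 *cora* libraries (red). Points are libraries and horizontal lines are group means. *nfkbiab* was the most abundant member in every library, and *bcl3* was the member whose red points lie farthest above the grey ones, from 4.16 to 6.90 against 0.32 to 0.59 RPKM.

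All 7 members passed the filter on low counts, and all 7 had a log2 fold change above 0, as did 47.8% of all genes tested. Their median was 0.66, beside -0.03 for all genes tested. At an adjusted p under 0.05 in the fit over all genes, 1 of the 7 members, *bcl3*, was called higher and 0 lower, where the background was 1.11% of all genes called higher, 0.86% lower and 1.97% in either direction. The groups did not overlap for 2 of the 7 members, *bcl3* and *nfkbie*, both higher, against 17.7% of all genes tested in either direction, 9.01% higher and 8.73% lower. Since this contrast was known when the family was chosen, nothing is read from these counts. Without control replicate 1, *nfkbiaa* was called as well, when 5.46% of all genes tested were.

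Among the Rel proteins, *rel* (ENSDARG00000055276, chromosome 13, 26019401 to 26043715, minus strand), which encodes c-Rel, was at 33.6, 13.1 and 13.0 normalized CPM in control 1, in control 3 and in the unnumbered control. Levels of 22.8, 29.3, 17.0 and 24.7 normalized CPM were found for *cora* replicates 1 to 4. Control replicate 1 was the highest of all 7 libraries and the other control libraries were the lowest, so the groups overlapped. Its fitted log2 fold change was 0.24 ± 0.37 (SE), and without control replicate 1 it was 0.86.

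*relb* (ENSDARG00000086173, chromosome 15, 16119427 to 16144236, plus strand) encodes a Rel protein of the alternative branch, which is released when the *nfkb2* product is processed. It was at 6.80, 15.1 and 17.5 normalized CPM in control 1, in control 3 and in the unnumbered control. Among the mutants, *cora* replicates 1 to 4 had 26.0, 19.7, 17.2 and 20.4 normalized CPM. Here control replicate 1 was the lowest library, and 3 of 4 *cora* libraries exceeded every control. This gave a log2 fold change of 0.66 ± 0.33 (SE), and it was 0.37 without control replicate 1.

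*nfkb2* (ENSDARG00000038687, chromosome 13, 22857578 to 22875759, plus strand) encodes a precursor that restrains its partners until it is cut to a DNA-binding form. It was at 12.2, 13.5 and 10.2 normalized CPM in control 1, in control 3 and in the unnumbered control. The *cora* replicates 1 to 4 were at 12.0, 24.7, 15.3 and 13.3 normalized CPM. Only *cora* replicates 2 and 3 exceeded every control, with *cora* replicate 2 well above the others. In the fit it had a log2 fold change of 0.45 ± 0.29 (SE), and it was 0.18 without *cora* replicate 2.

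Of the cytoplasmic inhibitors, *nfkbiaa* and *nfkbiab* are duplicates of the mammalian IκBα gene, a classical NF-κB target that resets the pathway. *nfkbiaa* (ENSDARG00000005481, chromosome 20, 16922347 to 16925201, plus strand) was at 43.8, 14.6 and 11.3 normalized CPM in control 1, in control 3 and in the unnumbered control. In *cora* replicates 1 to 4 the levels were 54.5, 65.6, 110 and 37.3 normalized CPM. Control replicate 1 lay above *cora* replicate 4, and 3 of 4 *cora* libraries exceeded every control. The log2 fold change was 1.53 ± 0.53 (SE), and without control replicate 1 it was 2.38. An antisense gene, *si:ch73-77m20.2*, overlaps 235 of the 1553 exonic bases of *nfkbiaa*, and it was counted with at most 4 reads in any library.

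*nfkbiab* (ENSDARG00000007693, chromosome 17, 12806046 to 12810148, plus strand) was at 271, 161 and 159 normalized CPM in control 1, in control 3 and in the unnumbered control. Levels of 262, 299.6, 349.6 and 213 normalized CPM were found for *cora* replicates 1 to 4. The groups overlapped through control replicate 1 alone, since all 4 *cora* libraries exceeded the other controls. Its fitted log2 fold change was 0.51 ± 0.28 (SE), and it was 0.82 without control replicate 1.

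*nfkbie* (ENSDARG00000068367, chromosome 20, 51608938 to 51644431, minus strand) encodes IκBε, a slower-acting relative of IκBα in mammals. It was at 20.3, 17.5 and 13.7 normalized CPM in control 1, in control 3 and in the unnumbered control. Among the mutants, *cora* replicates 1 to 4 had 27.5, 30.4, 38.3 and 22.2 normalized CPM. Every *cora* library exceeded every control, by a margin of 1.096 times between the nearest libraries. This gave a log2 fold change of 0.79 ± 0.25 (SE), and it stayed between 0.64 and 0.93 with any single library left out.

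*cora* replicate 3 was the highest library for all 3 inhibitors and for *bcl3*, and *cora* replicate 4 was the lowest of the *cora* libraries for each of these 4 genes. The Rel genes did not share that order: *cora* replicate 3 was the lowest *cora* library for *rel* and for *relb*. Control replicate 1 was above the mean of the other control libraries by 3.38 times for *nfkbiaa*, 2.57 times for *rel*, 1.69 times for *nfkbiab* and 1.30 times for *nfkbie*. For *relb* it was at 0.42 times that mean, for *nfkb2* at 1.03 times and for *bcl3* at 0.77 times. The sum of the epidermal markers, most of it *krt4*, was also higher in control replicate 1 and in each *cora* library than in the other control libraries. The same held for *krt4*, *cyt1*, *epcam*, *evpla*, *tp63* and *cldne* singly. It did not hold in every *cora* library for *krt5*, *krt17*, *cyt1l*, *icn*, *icn2* and *agr1*. The part of epidermal tissue in the levels of the family members was not tested.

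Per length, *nfkbiab* led the order of levels in control hearts, at 97.9 to 167 RPKM, with no overlap with the next. *nfkbiaa* followed at 7.26 to 28.2 RPKM, then *nfkbie* at 7.81 to 11.5 and *rel* at 6.09 to 15.7. The ranges of these 3 neighbours overlapped, so their order was not set beyond the spread. *relb* at 1.4998 to 3.87 RPKM and *nfkb2* at 2.45 to 3.25 also overlapped each other, below *rel*. *bcl3* was last, at 0.32 to 0.59 RPKM, under every other member in 3 of 3 control libraries. In *cora* hearts *bcl3* reached 4.16 to 6.90 RPKM, which overlapped *relb* at 3.80 to 5.74 and *nfkb2* at 2.89 to 5.95, and it exceeded at least one of these in all 4 libraries.

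The inhibitors were set against the Rel proteins within each library, as the summed RPKM of *nfkbiaa*, *nfkbiab* and *nfkbie* over that of *rel*, *relb* and *nfkb2*. *nfkbib*, a further IκB gene that is not among the members, is not in the inhibitor sum. *nfkbib* was at 22.1 to 32.7 normalized CPM in control and 20.7 to 26.6 in *cora* libraries. Its log2 fold change was -0.20 ± 0.21 (SE). *rela* and *nfkb1* are missing from the Rel sum, so the ratio covers part of the family. It was 10.3, 9.32 and 9.11 in control 1, in control 3 and in the unnumbered control. It was 10.99, 10.1, 19.9 and 8.70 in *cora* replicates 1 to 4. *cora* replicates 1 and 3 were above every control, replicate 1 by little, and *cora* replicate 4 was the lowest of all. On the log2 scale the ratio had a mean of 3.26 ± 0.09 over the controls (SD, n = 3) and of 3.56 ± 0.52 over the *cora* libraries (SD, n = 4), a difference of 0.30 that was smaller than the spread between *cora* libraries. Without *cora* replicate 3 the difference was 0.05. *nfkbiab* made up most of the inhibitor sum, and without it the difference was 0.93. With the mean of the log2 RPKM of each set in place of the log2 of its sum, it was 0.49.

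Control replicate 1, which stood apart in single genes, did not do so in this ratio, since its Rel sum of 20.1 RPKM and its inhibitor sum of 207 RPKM were both above those of the other controls. The Rel sums were 12.7 and 12.4 RPKM in the other controls and 15.5 to 24.0 in *cora* libraries. The inhibitor sums were 118 and 113 RPKM in the other controls and 167 to 308 in *cora* libraries. Inhibitor and Rel sums were thus both higher in every *cora* library than in control replicate 3 and the unnumbered control, and both overlapped control replicate 1.

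**Figure D2:**
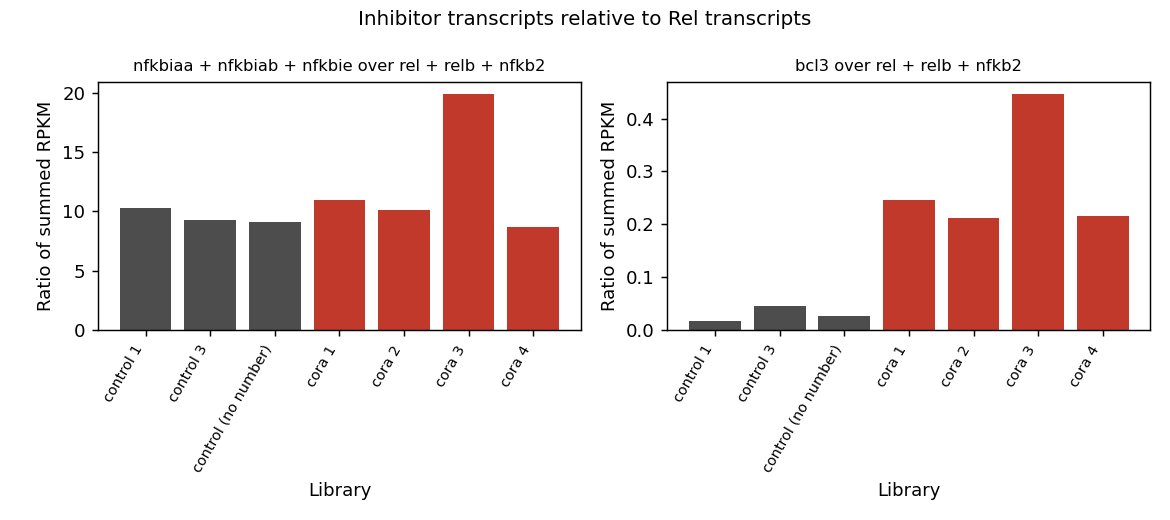
Ratio of summed RPKM in each library, for the 3 cytoplasmic inhibitors over the 3 Rel genes (left) and for *bcl3* over the same Rel genes (right), with 1 bar per library (control grey, *cora* red). The left ratio lies between 8.70 and 10.99 in every library except *cora* replicate 3, at 19.9, whereas every red bar on the right is above every grey bar. The separation on the right largely restates the difference of *bcl3*, which was known when it was chosen.

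The make-up of the inhibitor sum is given as a description, since the members were chosen with this contrast known. *nfkbiab* supplied 80.8%, 83.6% and 86.7% of the inhibitor RPKM in control 1, in control 3 and in the unnumbered control. It supplied 76.1%, 75.6%, 69.9% and 78.1% in *cora* replicates 1 to 4, below every control. *nfkbiaa* supplied 13.6%, 7.95% and 6.43% in the controls in the same order, and 16.5%, 17.3%, 23.0% and 14.4% in the *cora* libraries, above every control. The ratio of *nfkbiab* to *nfkbiaa* was 5.92 to 13.5 in control and 3.03 to 5.44 in *cora* hearts, without overlap. For these shares and this ratio the nearest libraries were control replicate 1 and *cora* replicate 4, by a small margin. The groups did not overlap for 17.7% of all genes tested, and nothing is read from these separations. The share of *nfkbie* was 5.59% to 8.44% in control and 7.09% to 7.56% in *cora* libraries. Within the Rel sum the groups overlapped for every gene, with *rel* at 48.3% to 78.0% in control and 51.5% to 60.02% in *cora* libraries.

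*bcl3* relative to the Rel sum was 0.0175, 0.0463 and 0.0258 in control 1, in control 3 and in the unnumbered control. It was 0.246, 0.211, 0.446 and 0.216 in *cora* replicates 1 to 4. The groups did not overlap, and the difference was 3.27 on the log2 scale. *bcl3* against *nfkb2*, whose product it binds in mammals, was 0.12 to 0.18 in control and 0.85 to 1.87 in *cora* libraries. Neither pair of ranges overlapped, beside 17.7% of all genes tested whose groups did not overlap. *bcl3* was chosen with its own difference known, so both separations largely restate it and nothing further is read from them.

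The genes around the family were taken by role from textbook lists: ligands, receptors, adaptors, the IκB kinases with the machinery that destroys the inhibitors, other IκB genes, feedback regulators and known targets. The lists hold 125 genes apart from the members, of which 80 had an ID and 69 were tested. Like the members, the lists were chosen with earlier results of these data known. Their counts and p-values therefore describe these libraries and are no independent support. By edgeR's quasi-likelihood test, 6 of the 69 passed an adjusted p of 0.05 over all genes and rose in *cora* hearts and 0 fell, beside 1.11% higher and 0.86% lower among all genes tested. At an unadjusted p under 0.05, 25 were higher and 2 lower, beside 9.13% higher and 8.61% lower among all genes tested. Of the 69, 49 had a log2 fold change above 0, beside 47.8% of all genes tested. The median of the 69 was 0.50, beside -0.03 for all genes tested. For 20 of them every *cora* library exceeded every control, where 9.01% of all genes tested did so, and for 0 of them the reverse held, against 8.73%. Each of these counts of higher genes includes *tlr2*. With 0 reads in control, it passed the filter on low counts only through the *cora* libraries. Other genes with few reads in a control also needed *cora* libraries to pass this filter. Of these, *tnfaip2b* is in the counts of 25, 49 and 20. It was at 0, 1.61 and 0.92 normalized CPM in control 1, in control 3 and in the unnumbered control. *tnfrsf11a*, *eda* and *tnfsf13b* are among the 49, and *tlr4ba* is below 0.

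These calls depended on single libraries. So did the number of calls over all genes. Without control replicate 1, 10 of the listed genes were called, 8 higher and 2 lower, when 5.46% of all genes tested were. Without control replicate 3 and without the unnumbered control, 0 were called, when only 0.186% and 0.154% of all genes tested were. Without *cora* replicates 1, 2 and 3, 2, 3 and 2 were called, beside 0.239%, 0.974% and 0.397% of all genes tested. At an unadjusted p under 0.05, 18 and 17 genes of the lists passed without control replicate 3 and without the unnumbered control, beside 12.7% and 12.1% of all genes tested.

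**Figure D3:**
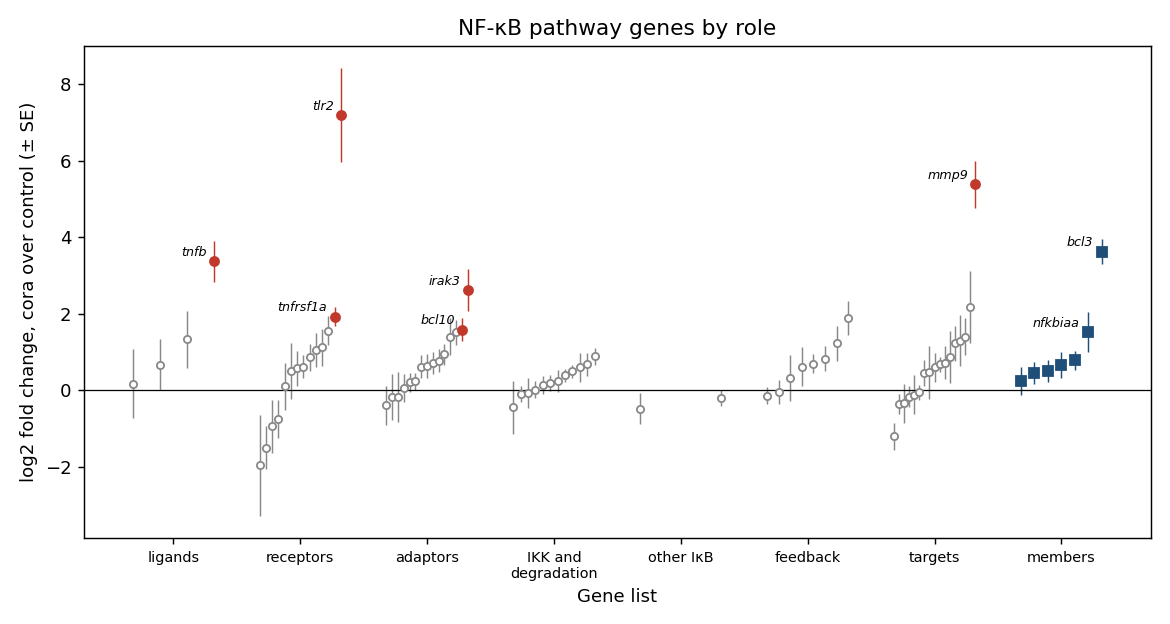
Log2 fold change of *cora* over control hearts with its standard error for each tested gene of the NF-κB pathway lists and for the 7 family members (blue squares). Filled red points are the 6 listed genes at an adjusted p under 0.05, all above 0, and a gene in more than 1 list is drawn in each. The fitted value of *tlr2* rests on 0 reads in control and is no measure of size.

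All 4 tested ligands had a log2 fold change above 0, beside 47.8% of all genes tested. *eda* and *tnfsf13b* were near the limit of detection and passed the filter on low counts only with *cora* libraries. *eda* was at 0.33 to 0.65 normalized CPM in control and 0.23 to 1.08 in *cora* libraries. *tnfsf13b* was at 0.17 to 0.42 and 0.07 to 0.74. Nothing is therefore read from the shared direction. Of the 4, 1 was called higher, beside 1.11% of all genes tested. *tnfb*, a tumour necrosis factor gene of fish, was at 8.56, 2.67 and 2.19 normalized CPM in control 1, in control 3 and in the unnumbered control. The *cora* replicates 1 to 4 were at 54.8, 38.4, 61.3 and 29.96 normalized CPM, above every control. In the fit it had a log2 fold change of 3.37 ± 0.53 (SE, adjusted p = 0.0245), and of 4.25 without control replicate 1 (adjusted p = 0.00328). It missed the threshold with control replicate 3 (adjusted p = 0.111), the unnumbered control (0.0944), *cora* replicate 1 (0.0703) or *cora* replicate 3 (0.0650) left out, and the lowest of the 7 such fold changes was 3.04. Its relative *tnfa* was too low to be tested, with 0, 1 and 0 reads in the control libraries and 8, 11, 44 and 0 in *cora* replicates 1 to 4. The least changed ligand was *tnfsf13b*, at 0.18 ± 0.90 (SE).

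Of 14 receptors tested, 2 rose and 0 fell, beside 1.11% higher and 0.86% lower among all genes tested. Their median log2 fold change was 0.60. *tnfrsf1a*, a receptor for tumour necrosis factor, was at 31.3, 24.6 and 18.1 normalized CPM in control 1, in control 3 and in the unnumbered control. In *cora* replicates 1 to 4 the levels were 94.5, 96.6, 102 and 80.9 normalized CPM, all more than any control. The log2 fold change was 1.93 ± 0.24 (SE, adjusted p = 0.0109), with an adjusted p of 0.0716 without control replicate 3 and 0.0582 without the unnumbered control.

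*tlr2*, a receptor for bacterial lipoproteins, had 0 reads in each control library and 19, 8, 22 and 16 reads in *cora* replicates 1 to 4. Against the 3 reads that 0 over the control group allows, its pooled level was at least 19.4-fold higher (adjusted p = 0.0429). It passed the filter on low counts only through the *cora* libraries. Its entry into the test thus depended on the direction of its difference, and its p-value is no support. At 0.30 to 1.02 normalized CPM it was near the limit of detection. Its adjusted p was 0.155 without control replicate 3, 0.165 without the unnumbered control and 0.0542 without *cora* replicate 2, and without any of *cora* replicates 1, 3 and 4 it did not pass the filter on low counts. With *tlr2* at that bound the median of the receptors was again 0.60. The lowest receptor was *tlr4ba*, at -1.95 ± 1.32 (SE, adjusted p = 0.495), itself at most 1.12 normalized CPM. *il1rapl2*, a relative of the interleukin receptors, was at 1.68, 9.49 and 7.98 normalized CPM in control 1, in control 3 and in the unnumbered control, and at 1.56 to 3.14 in *cora* libraries. Its log2 fold change was -1.49 ± 0.56 (SE, adjusted p = 0.207). Without control replicate 1 it was called lower, at -1.93 (adjusted p = 0.02996), and *tlr5a*, a receptor for flagellin, was called higher, at 1.81 (adjusted p = 0.0482). Both were named after their values were seen.

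Of 15 adaptors tested, 2 rose and 0 fell, beside 1.11% higher and 0.86% lower among all genes tested. *bcl10*, which with *malt1* carries antigen receptor and lectin signals to the IκB kinases, was at 8.65, 6.19 and 3.96 normalized CPM in control 1, in control 3 and in the unnumbered control. Levels of 21.8, 17.5, 18.6 and 17.2 normalized CPM were found for *cora* replicates 1 to 4, with no overlap. Its fitted log2 fold change was 1.58 ± 0.30 (SE, adjusted p = 0.0396). It missed the threshold when any library but control replicate 1 or *cora* replicate 4 was left out, at adjusted p of 0.164 and 0.147 without control replicate 3 and the unnumbered control and of 0.0940, 0.0708 and 0.0965 without *cora* replicates 1, 2 and 3.

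*irak3*, a pseudokinase that damps signals from Toll-like receptors in mammals, was at 2.97, 1.61 and 2.84 normalized CPM in control 1, in control 3 and in the unnumbered control. Among the mutants, *cora* replicates 1 to 4 had 17.9, 16.2, 22.0 and 4.19 normalized CPM. *cora* replicate 4 was close to the controls, though still above each of them. This gave a log2 fold change of 2.61 ± 0.55 (SE, adjusted p = 0.0493), and with 6 of the 7 libraries left out in turn it missed the threshold, at adjusted p of up to 0.193. It also missed it by limma voom on all 7 libraries (adjusted p = 0.109). Only without *cora* replicate 4 was it called, at 0.00995. *malt1* was just outside the threshold at a log2 fold change of 1.52 ± 0.32 (SE, adjusted p = 0.0513), and was called without control replicate 1 (adjusted p = 0.0120). *malt1* was named after its values were seen. The lowest adaptor was *sharpin*, at -0.38 ± 0.51 (SE, adjusted p = 0.755).

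**Figure D4:**
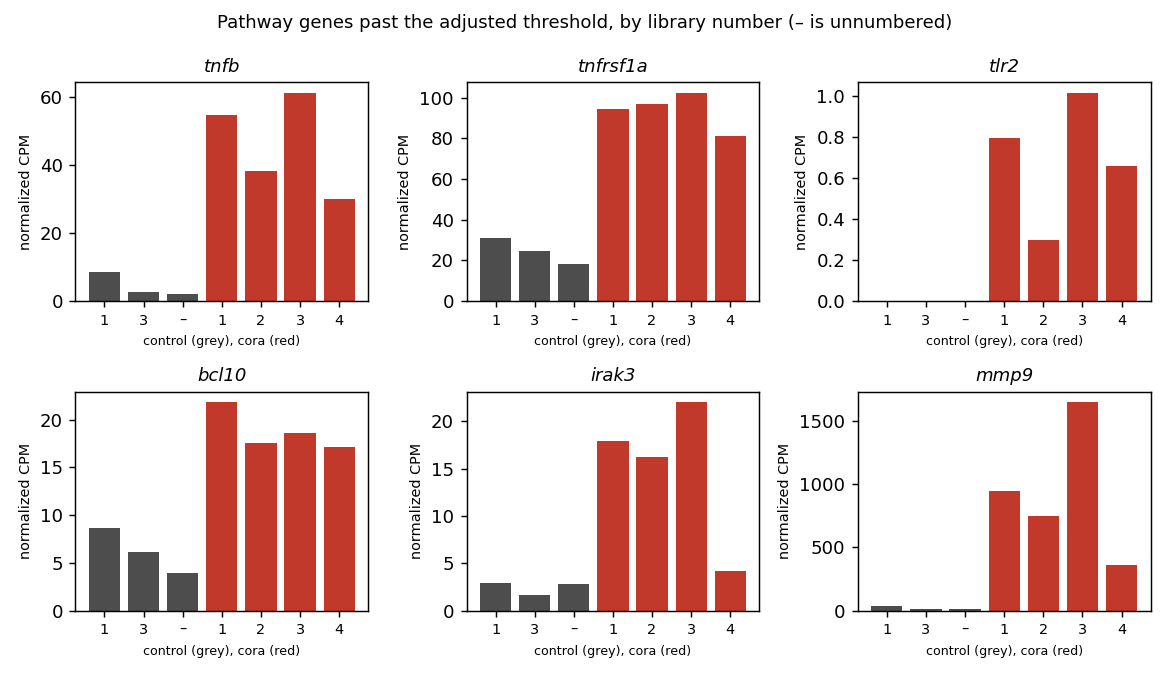
Normalized CPM of the 6 listed pathway genes past an adjusted p of 0.05, with 1 bar per library (control grey, *cora* red) and a linear axis from 0 in each panel. In every panel each *cora* library lies above each control, with *irak3* in *cora* replicate 4 the nearest to the controls, at 4.19 against at most 2.97.

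Among 12 tested genes of the IκB kinases and the inhibitor's destruction, 0 passed by edgeR's quasi-likelihood test. At an unadjusted p under 0.05, 4 were higher (9.13% of all genes tested). DESeq2 called 1 of the 12, where it called 8.27% of all genes tested. The largest value was that of *map3k14a*, which encodes the kinase that drives the alternative branch, with a log2 fold change of 0.89 ± 0.23 (SE, adjusted p = 0.0868), and it was called without control replicate 1 (adjusted p = 0.0381). It was at 13.3 to 18.7 normalized CPM in control and 24.1 to 35.1 in *cora* libraries. The lowest was its duplicate *map3k14b*, at -0.43 ± 0.69 (SE, adjusted p = 0.801). For 4 of the 12 genes every *cora* library exceeded every control, beside 9.01% of all genes tested. These were *map3k14a* and the 3 core subunits of the kinase complex, named here for their role. The subunits did not pass. The log2 fold change was 0.50 ± 0.17 for *chuk* (SE, adjusted p = 0.178), 0.68 ± 0.29 for *ikbkb* (0.271) and 0.39 ± 0.17 for *ikbkg* (0.278).

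Of 8 feedback regulators tested, 0 passed by the quasi-likelihood test, and 4 were higher at an unadjusted p under 0.05 (9.13% of all genes tested). With at least 10 counts required in every library, the same test called 1, beside 2.92% of all genes tested. DESeq2 called 1 of the 8, beside 8.27% of all genes tested. *tnip2*, whose product binds the deubiquitinase A20, had the highest log2 fold change, at 1.89 ± 0.43 (SE, adjusted p = 0.0626), and was at 0.98 to 1.88 normalized CPM in control and 2.89 to 6.79 in *cora* libraries. The lowest was *cyld*, at -0.13 ± 0.22 (SE, adjusted p = 0.807). Both other IκB genes tested, *nfkbib* and *nfkbil1*, had log2 fold changes below 0, at -0.20 and -0.48. Neither was at an unadjusted p under 0.05, and DESeq2 called 0 of them.

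The targets list held 17 tested genes that are not members, of which 1 rose and 0 fell, beside 1.11% and 0.86% of all genes tested. Of the 17, 11 were above 0, beside 47.8% of all genes tested, and their median log2 fold change was 0.60. *mmp9*, a secreted gelatinase, was at 33.8, 16.8 and 15.9 normalized CPM in control 1, in control 3 and in the unnumbered control. The *cora* replicates 1 to 4 were at 945, 748, 1646 and 361 normalized CPM. Every *cora* library exceeded every control, and within the *cora* group it was highest in replicate 3 and lowest in replicate 4, as were *bcl3* and the inhibitors. In the fit it had a log2 fold change of 5.38 ± 0.61 (SE, adjusted p = 0.00798), with an adjusted p of 0.0513 without control replicate 3 and 0.0541 without the unnumbered control.

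The lowest target was *vcam1b*, an adhesion molecule, at a log2 fold change of -1.20 ± 0.35 (SE, adjusted p = 0.125), and it was called lower without control replicate 1 (adjusted p = 0.0234). Of the listed targets of the liver's acute phase, *c3a.1* and *cfb* did not separate the groups. *c3a.1* was at 233 to 665 normalized CPM in control and 213 to 2096 in *cora* libraries. *cfb* was at 49.6 to 180 and 50.7 to 406. Both were named after their values were seen. They were highest in *cora* replicate 4, where the liver markers, at 25079 normalized CPM, were also highest among *cora* libraries (2805 to 10197 in the others, 7431 to 26012 in control), and the part of liver tissue in them was not tested.

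Markers of white blood cells were listed beside these genes because such cells express much of the pathway. The macrophage markers summed to 183 to 242 normalized CPM in control and 145 to 233 in *cora* libraries, and 0 of 13 tested passed. Most of that sum was *cd68*, at 149 to 192 in control and 95.6 to 161 in *cora* libraries. Several of the 13 were IDs of the same symbol, *mfap4*, with log2 fold changes from -0.72 to 0.74. Of the 13, 6 had a log2 fold change above 0, beside 47.8% of all genes tested, with *irf8* the highest at 1.63 (adjusted p = 0.151). The pan-leukocyte markers summed to 88.4 to 135 and 89.9 to 193 normalized CPM, with 0 of 6 passing. The lymphocyte markers summed to 94.3 to 127 and 79.9 to 99.2, with 0 of 7 passing. Most of the lymphocyte sum was *tox*, at 84.0 to 97.0 in control and 70.6 to 93.7 in *cora* libraries. Of the 7, 1 had a log2 fold change above 0, and their median was -0.89. The neutrophil markers summed to 81.8 to 121 in control and 116 to 972 in *cora* libraries. Of 6 tested, 1 rose, the collagenase gene *mmp13a* (log2 fold change 5.24, adjusted p = 0.0421), and the others did not pass, with log2 fold changes of 1.37 for *srgn*, 0.17 for *abcb9*, -0.05 for *npsn*, -0.37 for *illr4* and -0.93 for *lyz*. *srgn*, a proteoglycan gene, was at 33.0 to 68.7 normalized CPM in control and 47.1 to 224 in *cora* libraries. Both IDs of *cxcr1* were at 0 in all control libraries and at most 0.59 normalized CPM in *cora* libraries. The neutrophil sum was 571, 391, 972 and 116 normalized CPM in *cora* replicates 1 to 4, and the pan-leukocyte sum 184, 131, 193 and 89.9. Within that group both sums were highest in replicate 3 and lowest in replicate 4, as were *bcl3*, the inhibitors and *mmp9*. *tnfb*, *tnfrsf1a* and *irak3* had this order too, whereas *bcl10* and *tlr2* did not. The share of all genes with this order was not counted, so nothing is read from it. In *cora* replicate 3 most of the neutrophil sum was *mmp13a* (722) and *srgn* (224), and most of the pan-leukocyte sum was *cyba* (114) and *rac2* (60.7). *coro1a*, *ptprc*, *lcp1*, *ptpn6*, *lyz* and *npsn* were instead highest in *cora* replicate 1 within that group. The macrophage sum was lowest in *cora* replicate 3. *mpx*, *mpeg1.1* and *csf1ra* were not analysed here. The part of white blood cells in the values of *bcl3*, the inhibitors and the called genes was not tested.

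Over the 7 libraries, as a description, the profile of *bcl3* was compared with those of 11113 named genes with a mean log2 CPM of at least 2, by the root mean square difference of their centred log2 levels. The nearest was *lyve1a*, a hyaluronan receptor of lymphatic and some venous endothelium, at 0.36. It was followed by *tinagl1*, a matrix protein gene, at 0.43, the monooxygenase-like gene *moxd1* at 0.45, the membrane metalloproteinase gene *adam8b* at 0.54 and the metalloproteinase inhibitor *timp2* at 0.54. *lyve1a* was at 3.96 to 4.97 normalized CPM in control and 50.1 to 67.8 in *cora* libraries, and *tinagl1* at 34.7 to 39.9 and 242 to 457. The related gene *lyve1b* was called lower instead, at a log2 fold change of -2.27 ± 0.40 (SE, adjusted p = 0.0340). Of 7 endothelial markers tested, 0 passed, with a median log2 fold change of -0.02. The part of endothelium in the level of *bcl3* was not tested. The nearest family member was *nfkbiaa*, at 1.18, which was rank 176 in nearness to *bcl3*.

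**Figure D5:**
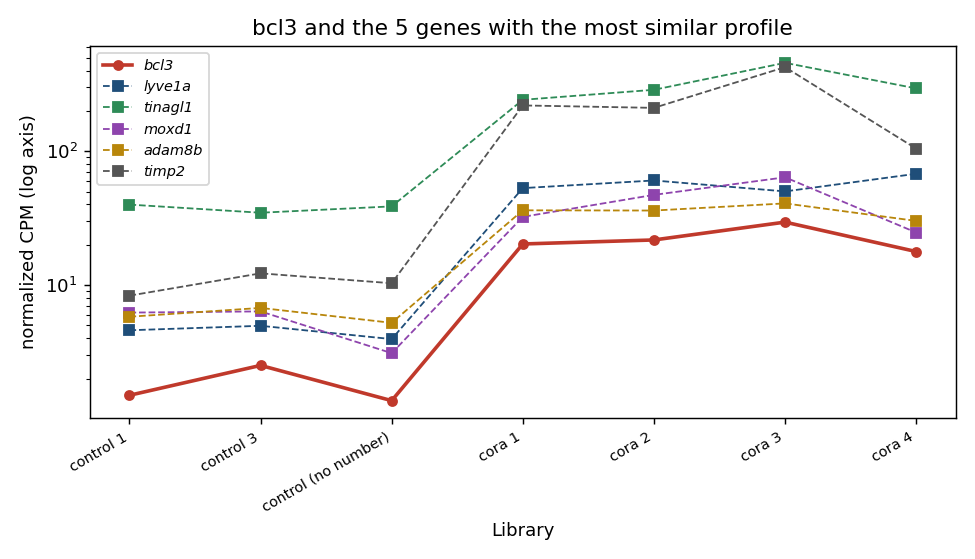
Normalized CPM (log axis) of *bcl3* (red, solid) and of the 5 genes with the most similar profile (dashed) in the 7 libraries. All 6 genes are low in the 3 control libraries and high in the 4 *cora* libraries, and *bcl3* goes from at most 2.52 to at least 17.8. For the other 5 genes this follows from their choice by profile.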

How the data were processed

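RNA from 7 pools of hearts (3 control, 4 *cora*) was sequenced from SMARTer libraries. The authors deposited whole-number read counts for 33737 Ensembl genes on Zv9, with the CPM and the RPKM they computed from them, which were not used. The submitters' processing notes name STAR 2.0.4b, Subread, featureCounts 1.4.5, edgeR and limma without settings, and strand handling is not given in the sources used here. Symbols came from a table that matched 21939 IDs.

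Counts were TMM-scaled, and 21632 genes kept by filterByExpr were tested with edgeR 4.0.16 (glmQLFit and glmQLFTest, two-sided, no covariate, Benjamini-Hochberg over all genes) in R 4.3.3. RPKM was recomputed from the counts, TMM factors and exon lengths. The procedure was tested on simulated data. At the deposited depth, 3 counts correspond to 0.0910 to 0.138 normalized CPM. Alternatives were DESeq2 size factors, library size alone, no filter, at least 10 counts in every library, DESeq2 1.42.0, limma 3.58.1 voom, each library left out, and a replicate block. No reference sequences were used. The members and lists were chosen with earlier results of these data known. The genes named are the members, *taf5*, the called, highest and lowest genes of each pathway list, and the 5 genes nearest to *bcl3* in profile. Outside that rule, *tnfa*, *chuk*, *ikbkb* and *ikbkg* are named for their role, and marker genes to describe the pools. *malt1*, *tlr5a*, *il1rapl2*, *c3a.1*, *cfb*, *tnfaip2b*, *tnfrsf11a*, *eda* and *lyve1b* are named after their values were seen.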

Additional observations from a re-analysis of the deposited data

How the results depend on the processing

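Of 98 log2 fold changes of the members under the alternatives, 97 were above 0, and *rel* was at -0.09 with the replicate block described here. Genes called at an adjusted p under 0.05 numbered 426 (1.97% of those tested), against 1789 by DESeq2 (8.27%), and 34 to 1207 with each library left out. The pathway lists held 6 called genes, against 13 by DESeq2, and 0 to 10 with each library left out. The cause of these shifts was not tested. With only the libraries numbered 1 and 3 and the number as a replicate block, 0 genes were called over all genes and 0 in the pathway lists, with 2101 and 13 at an unadjusted p under 0.05. Then 0 of the 7 members were called, with *bcl3* at a log2 fold change of 3.65, against 1 or 2 members under each other alternative. No source used here ties equal numbers to a common clutch. Same-numbered deviations correlated at 0.06 and 0.03, and those with the numbers crossed at -0.10 and 0.001. From so few libraries such values cannot decide whether equal numbers mark a common clutch. The log2 ratio of inhibitors to Rel proteins differed by 0.05 to 0.45 with each library left out, and by 0.93 without *nfkbiab*, the most abundant inhibitor. The *bcl3* to Rel difference was 2.94 to 3.65 with each library left out. With library size alone as the scale, 66.1% of called genes were higher, against 56.3%. Genes of few reads, such as *tlr2* and *tnfa*, are limited by depth.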
